A study of Mus musculus with 11 samples.

Results

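The rows examined here are those of the cytosolic ribosomal protein genes and their copies, in a table of 16755 genes measured in maxillary molar tooth germs of mouse embryos. They were chosen by symbol alone, as every row whose name starts with Rpl or Rps followed by a digit or the letter p, without the ribosomal S6 kinases. The rule found 91 rows. Of these, 46 were genes of the large ribosomal subunit and 30 of the small subunit, called the 76 core genes below. A further 7 were paralogs named after a ribosomal protein gene (Rpl7l1, Rpl22l1, Rpl36al, Rpl39l, Rps4l, Rps27l and Rps27rt), and 7 were pseudogene rows (Rpl14-ps1, Rpl31-ps12, Rpl34-ps1, Rplp2-ps1, Rps15a-ps4, Rps15a-ps6 and Rps19-ps3). The remaining row, Rps19bp1, encodes a protein that binds Rps19 and is not itself part of the ribosome.

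Maxillary molar tooth germs were taken at embryonic day 14.5, the cap stage, from C57BL/6 embryos of both sexes, and poly-A RNA was sequenced. The 11 libraries were 4 wild-type (Cilk1+/+), 4 Cilk1-/- and 3 Cilk1-/-;PCS1-MRCS1△/△, called the compound mutant here. In Cilk1-/- embryos exon 6 of Cilk1, which encodes a kinase of the primary cilium, was deleted in germ cells with EIIa-Cre. The compound mutant carried the same deletion and, in addition, a homozygous deletion of 70 kb from PCS1 to MRCS1, which are enhancer elements of Shh. The embryos are described as littermates, each biological replicate had n = 6, and whether 6 counts embryos or tooth germs is not stated. Nothing in the labels ties the replicates to separate litters, so the p-values measure the spread between these libraries.

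Ribosomal proteins form, with ribosomal RNA, the particle that translates mRNA, and one copy of nearly each of them is built into every ribosome. Their mRNAs belong to the most abundant of a growing tissue, and many of them begin with a run of pyrimidines, the 5′ terminal oligopyrimidine tract, through which translation is tied to growth signals. Mammalian genomes also hold many processed pseudogenes, copies of these mRNAs that were written back into the genome without introns, and a few of them are transcribed.

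The copies matter for the values, since a short read from a shared stretch fits more than 1 row. Rps27 encodes a zinc-finger protein of the small subunit and has 4 exons at chr3:90212522-90213651 on the minus strand. Rps27rt is a copy with 1 exon at chr9:114982366-114982739, also on the minus strand (GRCm38, GENCODE vM21). Both coding sequences, the longest reading frames of the annotated transcripts, were the same over all 255 bases and are shown once, with the start and stop codons in capitals. Rps27l, a paralog at chr9:66946086-66949516 on the plus strand, differed from them at 61 of 255 bases, which stand in capitals in its sequence.
Rps27 and Rps27rt: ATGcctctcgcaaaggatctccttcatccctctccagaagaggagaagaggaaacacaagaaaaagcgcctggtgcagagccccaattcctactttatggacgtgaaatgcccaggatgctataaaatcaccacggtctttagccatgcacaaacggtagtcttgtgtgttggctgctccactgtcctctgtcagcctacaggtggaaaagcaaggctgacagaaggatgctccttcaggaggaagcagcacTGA
Rps27l: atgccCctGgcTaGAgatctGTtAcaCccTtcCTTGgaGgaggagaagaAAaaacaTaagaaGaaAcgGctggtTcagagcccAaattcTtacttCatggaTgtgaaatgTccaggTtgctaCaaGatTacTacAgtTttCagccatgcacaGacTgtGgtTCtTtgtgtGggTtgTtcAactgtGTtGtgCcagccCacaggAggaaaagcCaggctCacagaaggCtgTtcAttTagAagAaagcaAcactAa

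Rpl34, a protein of the large subunit, has 5 exons at chr3:130726831-130730398 on the minus strand, and Rpl34-ps1 has 1 exon at chr6:71124610-71124963 on the plus strand. Their reading frames of 354 bases differed at 2 positions, T132C and C318G, counted from 1 at the A of the start codon with the base of Rpl34 first. Bases 120 to 330 are shown, and the capitals mark these positions.
Rpl34: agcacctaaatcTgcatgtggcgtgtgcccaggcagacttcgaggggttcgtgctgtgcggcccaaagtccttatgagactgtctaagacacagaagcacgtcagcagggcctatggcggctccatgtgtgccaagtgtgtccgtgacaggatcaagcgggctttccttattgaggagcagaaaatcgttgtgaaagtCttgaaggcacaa
Rpl34-ps1: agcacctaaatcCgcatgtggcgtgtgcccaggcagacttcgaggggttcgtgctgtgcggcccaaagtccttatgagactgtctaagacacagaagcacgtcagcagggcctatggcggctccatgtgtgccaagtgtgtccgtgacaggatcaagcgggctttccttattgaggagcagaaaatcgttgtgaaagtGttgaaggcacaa

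To describe how far copies share sequence, each annotated transcript was divided into all its overlapping stretches of 75 bases. These were looked up in the transcripts of all other genes. The 75 bases were a choice, since the read length is not given in the sources used here. Reads were paired and can reach beyond a shared stretch, so these percentages are not shares of reads. Of the 76 core genes, 74 shared at least 1 stretch with another gene. The median core gene shared 46.4% of its stretches, 33 core genes shared more than 50%, and the number of genes sharing a stretch had a median of 5 and a maximum of 64 (Rpl7a). For Rps27, 98.5% of the stretches were also in Rps27rt, and for Rps27rt 90.3% were in Rps27. Most copies were not among the rows of the table, and 12 of the 76 core genes shared a stretch with another listed row. How reads that fit several genes were counted is not given in the sources used here, so the level of a single row with listed copies is uncertain.

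Each deposited value is the log2 of a normalized level with 1 added. That level is probably FPKM, which counts fragments per transcript length and library size, and levels would then be per length. On the linear scale the libraries summed to 339971 at the lowest and to 364616 at the highest. The table gives no counts and the depth is unknown, so precision rests on the spread between libraries. Cilk1, listed under its older symbol Ick, lay between 3.45 and 3.60 in the wild-type libraries and between 2.60 and 2.86 in all mutant libraries. All 10 markers of dental epithelium and all 10 of dental mesenchyme were listed with a wild-type mean of at least 1. Where a wild-type and a Cilk1-/- library carried the same replicate number, they deviated from their group means in opposite directions over all genes (over the core genes clearly so for numbers 1 to 3 and weakly for 4), so that these 8 libraries were not independent, and the p-values take no account of that. Wild-type and Cilk1-/- replicates 1 to 3 were taken as one library set, and replicate 4 of both together with the compound mutant as another. The sample titles are worded alike in both sets and do not say what separates them. No compound mutant library is in the first set, so set and genotype are partly confounded. Genotypes were compared with limma in one fit over the 11 libraries, with the Benjamini-Hochberg adjustment over all 16755 genes. A row was called where the adjusted p was under 0.05 and the change was 1.5-fold or more. Apart from this limit of 1.5, all fold changes and differences below are on the log2 scale. Since 1 was added before taking the log2, changes of low rows are understated.

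The core genes were among the highest rows of the tooth germ. In wild type, 33 of the 50 genes with the highest mean and 70 of the highest 200 were core genes. The highest was Rplp1, an acidic protein of the ribosomal stalk, with levels of 10.58, 10.74, 10.66 and 10.60 in wild-type libraries 1 to 4 (10.64 ± 0.07, SD, n = 4). It was followed by Rpl41 (10.499 ± 0.14), the smallest of the ribosomal proteins, by Rps26 (10.40 ± 0.09), which lies where mRNA leaves the small subunit, by Rplp0 (10.33 ± 0.10), the base of the stalk, and by Rpl13 (10.17 ± 0.08). Neighbours in this order overlapped in their wild-type libraries. The core genes had a median of 9.27, and 70 of the 76 had a wild-type mean of at least 8.

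Only 5 core genes had a wild-type mean under 7. These were Rps15a (6.22 ± 0.12), Rpl34 (5.90 ± 0.05), Rpl21 (5.66 ± 0.28), Rpl26 (5.14 ± 0.27) and Rps27 (3.27 ± 0.65). Each of the 5 shared stretches with another listed row, compared with 12 of all 76. For Rps27, Rpl34 and Rpl26 the other row was the higher one. In wild type, Rps27rt was at 9.44 ± 0.27 beside Rps27, and Rpl34-ps1 was at 9.16 ± 0.10 beside Rpl34. Gm15772, a processed pseudogene at chr5:3236431-3236868 that holds 47.4% of the stretches of Rpl26, was at 9.503 ± 0.14. Rpl26 lies at the exit of the peptide tunnel. The row of its pseudogene thus had a value above that of the median core gene, whereas the row of the parent gene was among the lowest. How shared reads were divided between these rows is not known. Rps15a was above its listed copies Rps15a-ps6 (1.48 ± 0.19) and Rps15a-ps4 (0.71 ± 0.10), and Rpl21 shared 10.7% of its stretches with the listed BC004004. Sharing alone did not order the levels. Across the 76 core genes the shared percentage and the wild-type level had a Spearman correlation of −0.06, a description over genes that were measured in the same libraries.

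**Figure D1:**
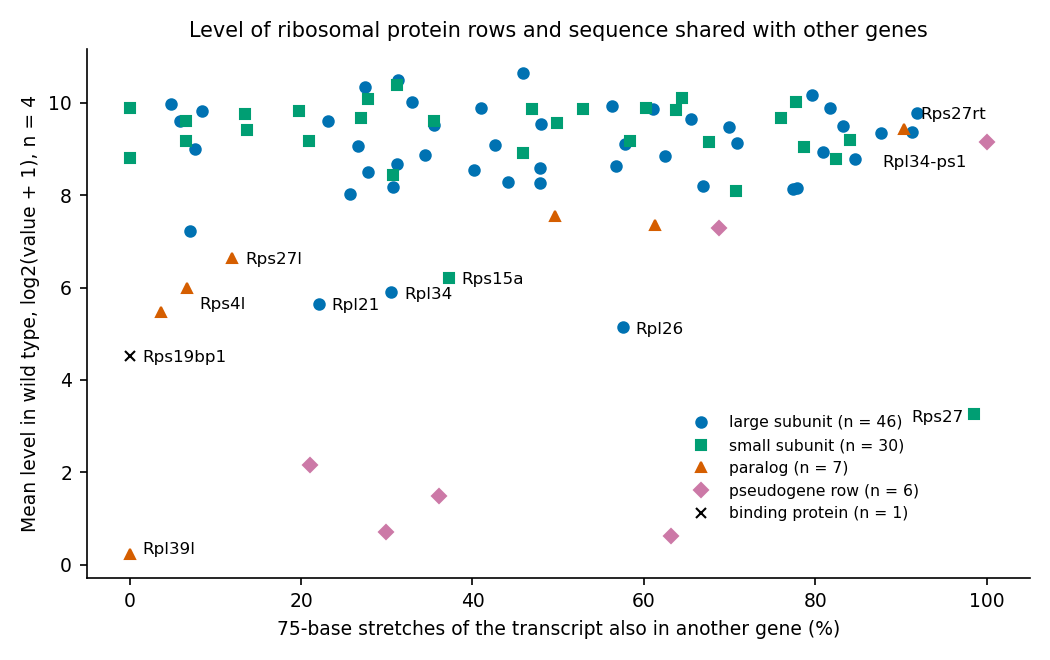
Mean level of the ribosomal protein rows in wild type (log2(value + 1), n = 4 libraries) against the percentage of 75-base stretches of the transcript that are also in another gene. Most core genes lie between 8 and 10.64 at any degree of sharing, while Rps27 lies at 3.27 with 98.5% shared, and Rps27rt and Rpl34-ps1 lie among the core genes; Rplp2-ps1, which had no annotated transcript, is not drawn.

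The other rows were lower. Among the paralogs, Rpl22l1 (7.55 ± 0.07), a paralog of Rpl22, and Rpl36al (7.36 ± 0.13) were the highest after Rps27rt. Rps27l (6.65 ± 0.09), Rps4l (5.99 ± 0.16) and Rpl7l1 (5.48 ± 0.06) followed, and Rpl39l, which is known for its expression in the testis, was at 0.24 ± 0.12. The lowest pseudogene rows were Rpl31-ps12 (0.63 ± 0.11), Rps15a-ps4, Rps15a-ps6 and Rps19-ps3 (2.16 ± 0.16). Rps19bp1 was at 4.52 ± 0.03.

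The core genes moved together from library to library. Their range over the 11 libraries had a median of 0.37 and was under 0.5 in 60 of 76 genes. Within this range they shared an order of the libraries, given here as the median over the 76 genes of the deviation from the mean of each gene. It was −0.15, 0.07, −0.01 and −0.08 in wild-type libraries 1 to 4. In Cilk1-/- libraries 1 to 4 it was 0.14, 0.0048, 0.07 and 0.02, and in compound mutant libraries 1 to 3 it was −0.20, 0.11 and 0.02. Compound mutant library 1 was the lowest of all 11 libraries for 51 of the 76 core genes, and Cilk1-/- library 1 was the highest for 41. Over all 16755 genes these medians lay between −0.02 and −0.0004. The lowest and the highest compound mutant library therefore spanned more than the wild-type libraries did, and the groups overlapped.

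**Figure D2:**
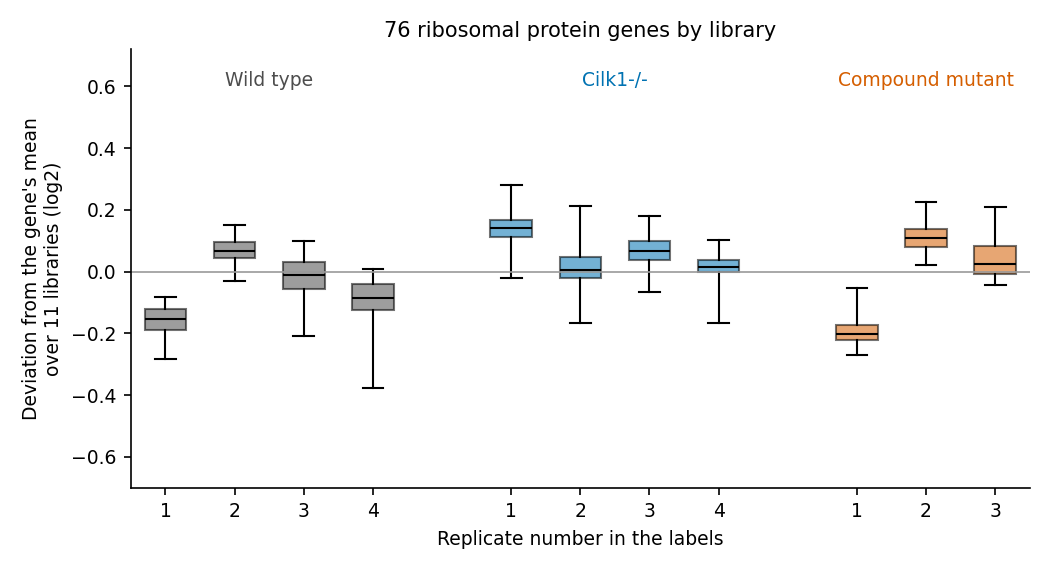
Deviation of the 76 core genes from their own mean over 11 libraries (log2), by library. The line in each box is the median, the box holds the middle 50% of genes and the whiskers reach from 5% to 95%; compound mutant library 1 (−0.20) and wild-type library 1 (−0.15) are the lowest, and Cilk1-/- library 1 (0.14) is the highest.

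Summed on the linear scale, the 91 rows held between 13.9% and 15.6% of the total in wild type (14.6 ± 0.76%, SD, n = 4). They held between 15.4% and 16.4% in Cilk1-/- (15.8 ± 0.50%, n = 4) and between 13.6% and 15.8% in the compound mutant (15.1 ± 1.25%, n = 3). The ranges overlapped, and a sum over the rows was given no test. In bulk tissue, fewer cells of a type and less RNA per cell cannot be told apart.

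In Cilk1-/- compared with wild type, no ribosomal protein row was called in either direction. Most rows were slightly higher. The fold change was above 0 in 78 of 91 rows (85.7%), against 51.2% of all genes, and its median was 0.10 (interquartile range 0.04 to 0.14), against 0.0032 over all genes. The small subunit had a median of 0.11, with 27 of 30 genes above 0, and the large subunit a median of 0.09, with 42 of 46 above 0. Quantile normalization reduced the median of all rows to 0.05 and median centring to 0.08. By limma, 12 rows were higher and 2 lower at an unadjusted p under 0.05, beside 9.57% and 11.1% of all genes, and the lowest adjusted p of the 91 rows was 0.102. Of all genes, 0.155% were called higher and 0.215% lower. The libraries of both genotypes did not overlap in 11 rows that were higher (12.1%, against 10.2% of all genes) and in 1 row that was lower (1.1%, against 10.7%). The share of higher rows in these counts was near that of all genes, and the share of lower rows was below it.

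The highest fold change was that of Rpl39, a small protein in the wall of the peptide exit tunnel. It was at 8.92, 9.28, 9.03 and 8.82 in wild-type libraries 1 to 4 and at 9.53, 9.30, 9.41 and 9.35 in Cilk1-/- libraries 1 to 4. The groups did not overlap, although wild-type library 2 and Cilk1-/- library 2 lay close together, and the log2 fold change was 0.39 (SE 0.12, adjusted p = 0.111). Rpl38, which is known for its role in translating Hox mRNAs in the embryo's axial skeleton, was at 8.20, 8.48, 8.31 and 8.04 and at 8.58, 8.70, 8.65 and 8.46. Its wild-type library 2 lay above Cilk1-/- library 4, and the log2 fold change was 0.34 (SE 0.10, adjusted p = 0.102).

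Further rows with a higher level were Rps28, Rps29, Rpl37a and Rps21. Rps28, which lies beside the mRNA exit, was at 8.87, 9.11, 8.93 and 8.72 in wild type and at 9.12, 9.31, 9.23 and 9.11 in Cilk1-/- (log2 fold change 0.29, SE 0.09). Rps29 was between 8.13 and 8.62 in wild type and between 8.54 and 8.86 in Cilk1-/- (0.31, SE 0.11), and the groups overlapped. Rpl37a, a zinc-binding protein of the large subunit, was between 8.94 and 9.23 in wild type and between 9.24 and 9.42 in Cilk1-/- (0.26, SE 0.08), without overlap. Rps21, a protein of the small subunit, was between 9.04 and 9.39 and between 9.37 and 9.51 (0.26, SE 0.09), with a small overlap. Rpl41, by contrast, had a log2 fold change of 0.02 (SE 0.10). Of the 12 rows that were higher at an unadjusted p under 0.05, 8 had transcripts under 700 bases. Among the core genes, 7 of 33 with shorter transcripts and 4 of 43 with longer ones were among them, and the median fold changes of these groups were 0.11 and 0.09. Among 909 other genes with transcripts under 700 bases, the median was 0.02, and 537 were above 0. By limma, 114 of them were higher and 54 lower at an unadjusted p under 0.05, beside 9.57% and 11.1% of all genes. Of the 116 with a wild-type mean of at least 5, 7 were higher and 8 lower.

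By role, the differences were small throughout. The stalk genes Rplp0, Rplp1, Rplp2 and Rpl12, which recruit the elongation factors, had log2 fold changes from 0.04 to 0.11. Rpl5 and Rpl11, which carry the 5S ribosomal RNA and can bind Mdm2, were at 0.09 and 0.05. The genes at the exit tunnel (Rpl4, Rpl17, Rpl19, Rpl23a, Rpl26, Rpl31, Rpl35 and Rpl39) had a median of 0.17, with 7 of 8 above 0 and Rpl26 at −0.13. Those at the mRNA entry and the decoding centre (Rps2, Rps3, Rps9, Rps15 and Rps23) had a median of 0.07, with Rps2 at −0.11. The 9 listed genes mutated in Diamond-Blackfan anaemia, an inherited failure of red cell formation, had a median of 0.12, and all 9 were above 0. Rps7, the highest of them, was at 9.03, 9.26, 9.20 and 9.18 in wild type and at 9.48, 9.30, 9.37 and 9.33 in Cilk1-/-, without overlap (log2 fold change 0.20, SE 0.08, adjusted p = 0.177). Rps6, the substrate of the S6 kinases, was at 0.08. None of these roles held a called gene.

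The 2 rows that were lower at an unadjusted p under 0.05 were no genes of the core set. Rps4l, annotated as a transcribed processed pseudogene, was at 5.76, 6.15, 6.04 and 6.01 in wild type and at 5.92, 5.58, 5.65 and 5.63 in Cilk1-/- (log2 fold change −0.30, SE 0.11, adjusted p = 0.165). Rps19bp1 was at 4.50, 4.56, 4.52 and 4.51 and at 4.42, 4.41, 4.43 and 4.38, without overlap (−0.11, SE 0.04, adjusted p = 0.147). Among the copies, Rpl34-ps1 was at 9.06, 9.28, 9.20 and 9.10 in wild type and at 9.49, 9.31, 9.42 and 9.30 in Cilk1-/-, also without overlap (0.22, SE 0.09, adjusted p = 0.191).

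**Figure D3:**
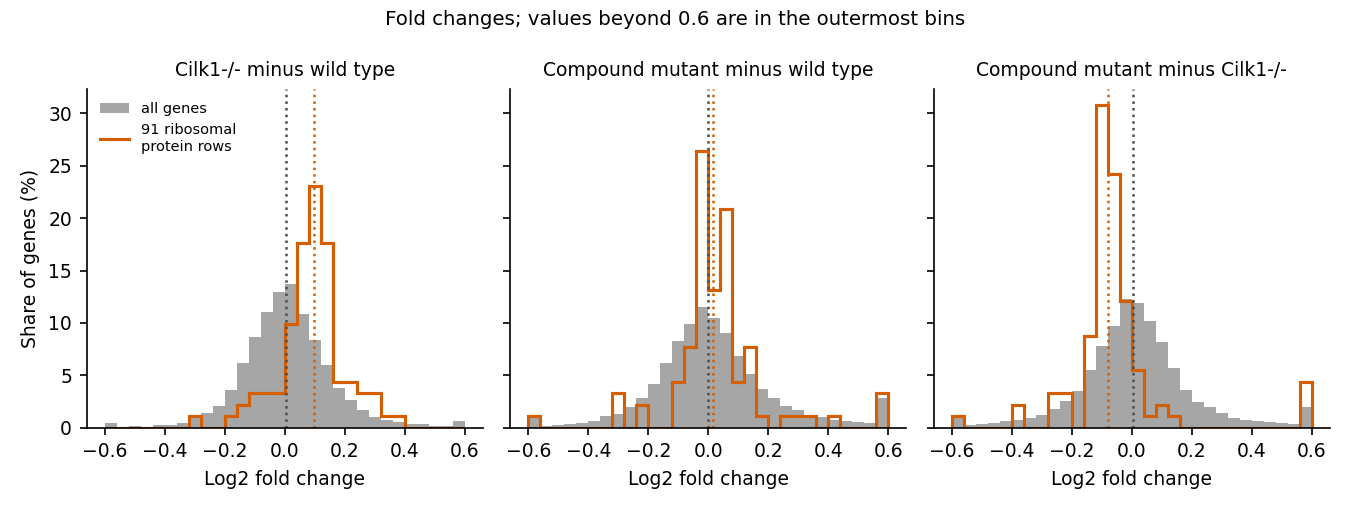
Distribution of log2 fold changes in the 3 comparisons (share of genes in bins of 0.04), for all 16755 genes (grey area) and the 91 ribosomal protein rows (orange line), with dotted lines at the medians. The rows lie mostly above 0 in Cilk1-/- minus wild type (median 0.10), around 0 in compound mutant minus wild type (0.02) and below 0 in compound mutant minus Cilk1-/- (−0.08); comparisons share libraries.

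In the compound mutant compared with wild type, 3 rows were called. Rps27 and Rpl34 were higher, and Rps27rt was lower. Among all genes, 0.615% were called higher and 0.633% lower. The remaining rows lay around 0: the median of all 91 was 0.02 and turned to −0.0030 with median centring, and 50 rows were above 0 (54.9%, against 49.4% of all genes). At an unadjusted p under 0.05, 5 rows were higher and 3 lower, beside 12.9% and 13.8% of all genes. Rows whose libraries did not overlap numbered 2 higher and 2 lower, beside 8.92% and 9.05% of all genes.

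In the compound mutant compared with Cilk1-/-, Rps27, Rpl34 and Rps27a were called higher and Rps27rt lower. Among all genes, 0.155% were called higher and 0.388% lower. The median of the 91 rows was −0.08, with 13 rows above 0 (14.3%, against 51.0% of all genes), and it was 0.0070 without compound mutant library 1. At an unadjusted p under 0.05, 4 rows were higher and 4 lower (10.9% and 12.3% of all genes). The libraries did not overlap in 3 rows that were higher and 3 that were lower (7.74% and 9.30% of all genes). These comparisons share the compound mutant libraries, so the calls in both are not separate evidence.

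Rps27 and Rps27rt held the largest differences, and they ran in opposite directions in the same libraries. Rps27 was at 3.02, 4.23, 2.81 and 3.01 in wild-type libraries 1 to 4 and at 3.44, 2.46, 3.81 and 3.12 in Cilk1-/- libraries 1 to 4. In compound mutant libraries 1 to 3 it was at 8.16, 4.25 and 8.53. Libraries 1 and 3 of the compound mutant were thus far above all others, while library 2 lay just above the highest wild-type library. Rps27rt was at 9.35, 9.81, 9.42 and 9.17 in wild type, at 9.77, 9.41, 9.76 and 9.44 in Cilk1-/-, and at 6.05, 8.97 and 6.34 in the compound mutant. The same libraries, 1 and 3, were far below all others, and library 2 lay just under the lowest wild-type library.

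The log2 fold change of Rps27 was 3.71 against wild type (SE 0.87, limma adjusted p = 0.0348) and 3.77 against Cilk1-/- (SE 0.87, adjusted p = 0.0448). That of Rps27rt was −2.32 (SE 0.55, adjusted p = 0.0376) and −2.48 (SE 0.55, adjusted p = 0.0426). These calls were close to the threshold. Of the 11 fits that each left out 1 library, only the fit without compound mutant library 2 kept Rps27 and Rps27rt past it, with 5.08 and −3.24 against wild type. In the other 10 the adjusted p ranged from 0.0506 to 0.0969 for Rps27 and from 0.0548 to 0.0954 for Rps27rt against wild type, and from 0.0543 to 0.105 and from 0.0514 to 0.111 against Cilk1-/-. With the replicate number as a block it was 0.148 and 0.127 against wild type and 0.209 and 0.191 against Cilk1-/-, respectively.

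Expressed as a split between both rows, Rps27 held between 0.873% and 1.94% of their sum on the linear scale in wild type and between 0.657% and 1.48% in Cilk1-/-. In the compound mutant it held 81.4%, 3.48% and 82.1% in libraries 1 to 3. The sum depended on how the rows were joined. Added as they stand, Rps27 and Rps27rt gave −0.69 against wild type (SE 0.17, adjusted p = 0.0429) and −0.85 against Cilk1-/- (SE 0.17, adjusted p = 0.0338). With the replicate number as a block the adjusted p was 0.121 and 0.148. If the values are FPKM, and so per length, rows of unequal length do not add up to reads. The rows were therefore also weighted by merged exon length (1043 bases for Rps27 and 374 for Rps27rt in GENCODE vM21). The annotated transcripts are closer in length, with 345 and 374 bases, and a sum weighted by these was not made. Such weights would be nearly equal, and so closer to adding the rows as they stand. The weighted sum was at 7.92, 8.41, 7.98 and 7.74 in wild type, at 8.34, 7.96, 8.34 and 8.01 in Cilk1-/-, and at 8.27, 7.63 and 8.64 in the compound mutant. Compound mutant library 1 lay among the others, library 3 was the highest and library 2 the lowest of all 11. The weighted difference was 0.17 against wild type (SE 0.22, adjusted p = 0.661) and 0.02 against Cilk1-/- (SE 0.22, adjusted p = 0.978). The lengths used by the authors are not given in the sources used here, and both ways of summing were tried after the values were seen.

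**Figure D4:**
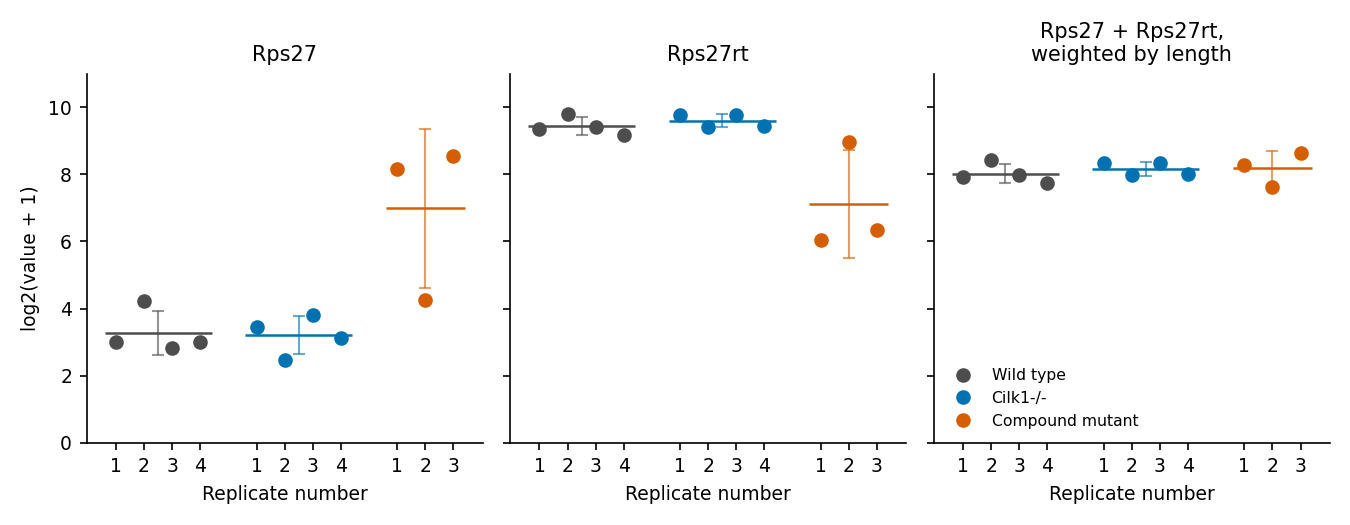
Level of Rps27, of Rps27rt and of their length-weighted sum in each library (log2(value + 1)), by genotype and replicate number. Points are libraries, horizontal lines are means and bars are ± 1 SD (n = 4, 4 and 3); compound mutant libraries 1 and 3 are high in Rps27 (8.16 and 8.53) and low in Rps27rt (6.05 and 6.34), and in the sum they stand at 8.27 and 8.64. The sum without weights, not drawn, is at 8.46, 9.02 and 8.81 in compound mutant libraries 1 to 3 and between 9.18 and 9.84 in wild type.

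Rps27l, which shared no stretch with a listed row, was at 6.65 ± 0.09 in wild type, 6.71 ± 0.07 in Cilk1-/- and 6.83 ± 0.10 in the compound mutant. It was at 6.71, 6.90 and 6.88 in the single libraries of the compound mutant, and the difference from wild type was 0.18 (SE 0.07, unadjusted p = 0.0193, adjusted p = 0.118). The mirrored split was thus seen in the 2 rows of the same sequence, and no such jump was seen in this paralog.

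Rpl34 was called against both other genotypes. It was at 5.84, 5.95, 5.87 and 5.94 in wild type, at 6.10, 5.96, 6.02 and 5.67 in Cilk1-/-, and at 6.53, 6.55 and 6.91 in the compound mutant. All 3 compound mutant libraries lay above all 8 others. The log2 fold change was 0.76 against wild type (SE 0.11, adjusted p = 0.0071) and 0.73 against Cilk1-/- (SE 0.11, adjusted p = 0.0121). It was called in all 11 fits that left out 1 library, with 0.64 to 0.83 against wild type, while the adjusted p was 0.0749 and 0.138 with the replicate number as a block. With the library set as a term, the adjusted p was 0.0545 against wild type and 0.147 against Cilk1-/-. With only the genotypes compared in the fit it was 0.0368 against wild type and 0.110 against Cilk1-/-.

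Its copy Rpl34-ps1 was not called. It was at 8.92, 9.31 and 9.10 in the compound mutant, compared with 9.06 to 9.28 in wild type and 9.30 to 9.49 in Cilk1-/- (log2 fold change against Cilk1-/- −0.27, SE 0.09, adjusted p = 0.126). The sum of both rows as they stand differed by 0.05 from wild type (SE 0.09, adjusted p = 0.755). Weighted by merged exon length (2643 and 354 bases) it differed by 0.37 (SE 0.08, adjusted p = 0.0335), which is under the fold change of 1.5 needed for a call. The annotated transcripts have 624 and 354 bases, and weights from these were not tried. Against Cilk1-/- the sum turned from −0.15 as it stands (adjusted p = 0.326) to 0.23 weighted by length (adjusted p = 0.151), so its direction depended on the weighting.

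Rps27a encodes a fusion of ubiquitin with a protein of the small subunit and, despite its symbol, is not a relative of Rps27. It was at 8.05, 8.08, 8.52 and 7.74 in wild type, at 8.10, 7.98, 7.64 and 7.96 in Cilk1-/-, and at 9.30, 9.44 and 8.30 in the compound mutant. Libraries 1 and 2 of the compound mutant were above all others, and library 3 was below wild-type library 3. The log2 fold change was 0.92 against wild type (SE 0.26, adjusted p = 0.0604) and 1.09 against Cilk1-/- (SE 0.26, adjusted p = 0.0496). Only the fit without compound mutant library 3 kept the second call among the 11 fits that left out 1 library, with 1.45, and the adjusted p was 0.226 with the replicate number as a block. Rps27a shared 70.7% of its stretches with other genes, none of them listed in the table.

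Single libraries stood apart in other rows too. Rpl7a, a protein of the large subunit, was at 9.15 in compound mutant library 2 and between 7.81 and 8.37 in the other 10 libraries (0.44 against wild type, SE 0.21, adjusted p = 0.217). Rpl26 was at 4.02 in compound mutant library 1 and between 4.82 and 5.49 elsewhere, while its pseudogene Gm15772 was at 9.40 in that library and between 9.34 and 9.75 elsewhere. Rpl17, another protein at the exit tunnel, was at 7.38 in compound mutant library 1 and between 7.86 and 8.47 elsewhere. The compound mutant library that stood apart was thus not the same in each row: it was 1 and 3 for Rps27, 1 and 2 for Rps27a, 2 for Rpl7a and 1 for Rpl26 and Rpl17.

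Of the rows that did not overlap, Rps15a-ps6 was at 1.15, 1.28 and 1.17 in the compound mutant, against 1.29 to 1.66 in wild type and 1.52 to 1.69 in Cilk1-/-. Its log2 fold change was −0.28 against wild type (SE 0.10, adjusted p = 0.114) and −0.39 against Cilk1-/- (SE 0.10, adjusted p = 0.0597). Rpl35a, also mutated in Diamond-Blackfan anaemia, was at 7.88, 8.37 and 8.35 in the compound mutant and between 8.37 and 8.55 in Cilk1-/-, where the nearest libraries were almost equal (−0.25, SE 0.12, adjusted p = 0.251).

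**Figure D5:**
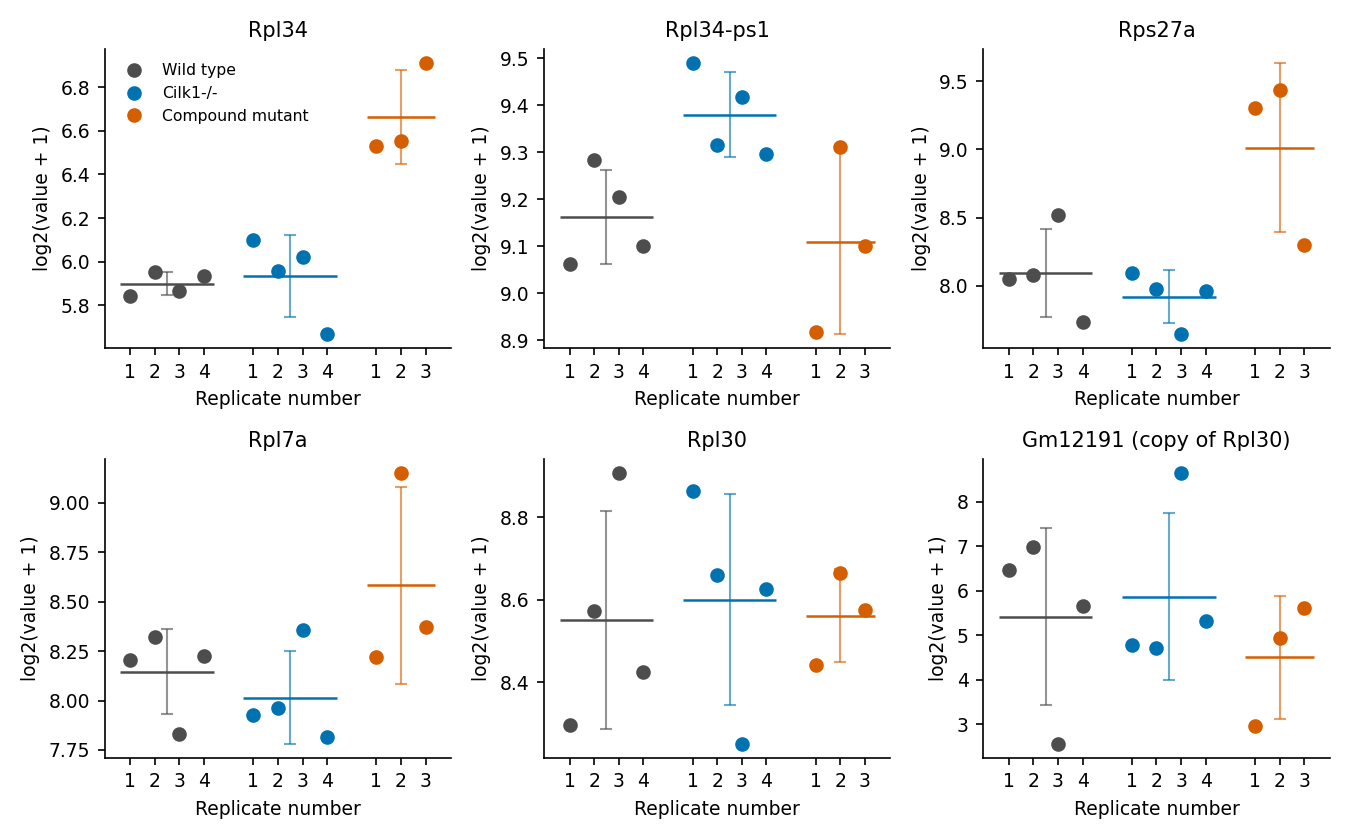
Level of Rpl34, Rpl34-ps1, Rps27a, Rpl7a, Rpl30 and the Rpl30 pseudogene Gm12191 in each library (log2(value + 1)), on axes that differ between panels and do not start at 0. Points are libraries, horizontal lines are means and bars are ± 1 SD (n = 4, 4 and 3); Rpl34 is between 6.53 and 6.91 in the compound mutant libraries and at most 6.10 elsewhere, and Gm12191 spans 2.55 to 8.66.

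Rpl30 and Gm12191 formed a further pair. Gm12191 is a processed pseudogene at chr11:49678710-49679057 on the minus strand and holds 40.1% of the stretches of Rpl30. It was at 6.47, 6.99, 2.55 and 5.66 in wild type, at 4.78, 4.71, 8.66 and 5.31 in Cilk1-/-, and at 2.95, 4.93 and 5.62 in the compound mutant. Rpl30 itself, a protein of the large subunit, was at 8.30, 8.57, 8.91 and 8.43 in wild type and at 8.86, 8.66, 8.25 and 8.63 in Cilk1-/-. In the compound mutant it was at 8.44, 8.67 and 8.58. The library with the highest pseudogene value, Cilk1-/- library 3, had the lowest value of Rpl30, and the library with the lowest pseudogene value, wild-type library 3, had the highest. This opposite order was not seen in every library. In compound mutant library 1 the pseudogene was low too (2.95), yet Rpl30 was not high (8.44). In wild-type library 2 the pseudogene was high (6.99), yet Rpl30 was not low (8.57). Neither row differed between genotypes by the test (adjusted p of 0.895 for Rpl30 and 0.870 for Gm12191 in Cilk1-/- against wild type). Cilk1-/- library 3 and wild-type library 3 share their number, and same-numbered wild-type and Cilk1-/- libraries deviated in opposite directions over all genes.

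The other pairs differed little. Rpl14 and Rpl14-ps1, whose aligned reading frames differed at 7 of 654 positions, were at 9.08 ± 0.06 and 7.30 ± 0.08 in wild type, and their sum differed from wild type by 0.07 in Cilk1-/- and by 0.0018 in the compound mutant, with adjusted p of 0.635 and 0.994. The sums of Rpl36a with Rpl36al, Rpl31 with Rpl31-ps12, Rplp2 with Rplp2-ps1, Rps15a with its copies and Rps19 with Rps19-ps3 differed from wild type by 0.0071 to 0.20 in the mutants, and none was called. Of the 8 groups of copies fixed by symbol, 0 were called in Cilk1-/- against wild type and 0 in the compound mutant against wild type. The group of Rps27, Rps27rt and Rps27l was called lower against Cilk1-/- (−0.70, SE 0.15, adjusted p = 0.0412), and weighted by length its difference was 0.05. It was called in 3 of the 11 fits that left out 1 library, and its adjusted p was 0.167 with the replicate number as a block.

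Summed levels of markers of other cell types varied between libraries as well. For 10 neuronal markers the linear sum was between 50.8 and 61.1 in wild type, between 61.96 and 70.3 in Cilk1-/- and between 67.8 and 262.6 in the compound mutant, highest in library 1. Of the neuronal markers, 4 of 10 had a wild-type mean of at least 1, and Stmn3 was at or below 0 in 1 library. For 10 skeletal muscle genes it was between 10.8 and 31.6 in wild type, between 20.8 and 54.5 in Cilk1-/- and between 7.76 and 10.3 in the compound mutant. In Cilk1-/- against wild type, where 78 of the 91 ribosomal protein rows had fold changes above 0, all 10 neuronal markers (median 0.42) and all 10 muscle genes (median 0.49) had fold changes above 0, and 0 and 5 of them had an unadjusted p under 0.05. The sum of 10 erythroid genes was between 1060 and 3814 in the compound mutant and between 2892 and 4183 in the other libraries. The lists of the tooth germ itself lay mostly below 0 in the compound mutant. Against wild type, 9 of 10 dental mesenchyme markers (median −0.39) and 8 of 10 dental epithelium markers (median −0.19) were below 0, with 5 and 1 at an unadjusted p under 0.05. Against Cilk1-/-, 8 of 10 were below 0 in each list, with medians of −0.24 and −0.45. The epithelium list includes Shh, whose enhancer elements are deleted in the compound mutant. The linear sums did not fall in every compound mutant library. For epithelium the sum was 622, 828 and 1353 in libraries 1 to 3, against 983 to 1235 in wild type. For mesenchyme it was 1092, 1688 and 1539, against 1392 to 1518. Among genes of these lists, Tubb3 of neurons was called higher in the compound mutant against wild type (1.503, adjusted p = 0.0268), Krt15 of epithelium was called higher in Cilk1-/- against wild type (0.63, with 0.0436 as adjusted p) and lower in compound mutants against Cilk1-/- (−1.06, with 0.0093). Acta1, Actc1 and Myh3 of muscle were called lower in the latter comparison (−1.71, −2.35 and −1.52). With the replicate number as a block, the adjusted p was 0.127 for Tubb3, 0.0846 and 0.0459 for Krt15, and between 0.181 and 0.218 for the muscle genes. No gene of the macrophage and endothelium lists was called in any comparison. The part of these differences in the ribosomal protein values was not tested.

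Ribosomal proteins whose symbols lie outside the rule were measured as well. Fau, whose product is cut to release a protein of the small subunit, was at 9.16 ± 0.08, 9.30 ± 0.05 and 9.21 ± 0.14 in wild type, Cilk1-/- and the compound mutant. Rpsa, also known as a laminin receptor, was at 9.47 ± 0.10, 9.36 ± 0.08 and 9.34 ± 0.20, and Rack1, listed under its older symbol Gnb2l1, was at 9.61 ± 0.08, 9.56 ± 0.07 and 9.52 ± 0.15. None of these was called in any comparison. In Cilk1-/- against wild type, the log2 fold change of Fau was 0.14, and those of Rpsa and Gnb2l1 were −0.11 and −0.05.

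Other lists of translation genes had lower medians than the ribosomal protein rows in Cilk1-/- against wild type, a difference that was not tested. The 15 listed genes of elongation factors and other mRNAs with a pyrimidine tract had a median of 0.01 (8 above 0), and 1 was higher and 0 lower at an unadjusted p under 0.05 by limma. Of 39 listed genes of ribosome biogenesis, the making of the ribosome in the nucleolus, 34 were below 0 with a median of −0.09, and 12 were lower and 0 higher at an unadjusted p under 0.05, where 11.1% of all genes were lower and 9.57% higher. Of 77 mitochondrial ribosomal proteins, 61 were below 0 with a median of −0.07, and 19 were lower and 2 higher. None of these genes was called. Non-member genes with a wild-type mean of at least 8, which number 91 too, had a median of −0.05, with 29 above 0. The medians in the compound mutant against wild type were −0.02 for elongation factors, −0.05 for ribosome biogenesis and −0.07 for mitochondrial ribosomal proteins. Against Cilk1-/- they were −0.02, 0.02 and −0.0078, and no gene of the 3 lists was called there.

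Lists of stress responses were fixed beside them, since defects of the ribosome can release p53. Of 12 p53 targets, Cdkn1a, an inhibitor of the cell cycle, was called higher in the compound mutant against wild type (1.11, SE 0.21, adjusted p = 0.0176). It was at 3.31, 3.98, 4.08 and 3.79 in wild type and at 5.28, 4.50 and 4.93 in the compound mutant, without overlap, and its adjusted p was 0.125 with the replicate number as a block. The 12 p53 targets had a median of 0.06 in that comparison, with 7 above 0 and 5 below, and of 0.02 in Cilk1-/- against wild type. Whether p53 had a part in the level of Cdkn1a was not tested. The 12 genes of the integrated stress response had medians of 0.12 and −0.07, and the 7 listed hosts of small nucleolar RNAs had medians of −0.04 and 0.08, with no called gene in either list.

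The start of the mRNA was examined in the promoter windows of RefSeq (GRCm38.p6, 250 bases before to 50 bases after each annotated start), which held 64 of the 91 rows. The motif searched was a C at the annotated start followed by 4 bases that are each C or T, read on the strand of the gene. It was found for 14 of these 64 genes (21.9%), compared with 3.01% of 27025 genes with a window. They include Rpl14, Rpl15, Rpl28, Rpl35, Rpl35a, Rpl38, Rplp2, Rps6, Rps10, Rps15a, Rps18, Rps21, Rps27 and Rps27rt. The sequences show 20 bases before the start and 10 from it on, with the unbroken run of pyrimidines at the start in capitals. Rps27 and Rps27rt are shown since they share the transcribed sequence but not the bases before it, and Rpl38 and Rpl35a since their values are described above. The windows are chr3:90213639-90213668 (minus strand), chr9:114982730-114982759 (minus), chr11:114668560-114668589 (plus) and chr16:33056462-33056491 (plus).
Rps27: acaggatttccgctttcgctCCTTTCCggc
Rps27rt: ggttaagaacttatcccttgCTTTCCggcg
Rpl38: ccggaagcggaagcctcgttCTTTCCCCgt
Rpl35a: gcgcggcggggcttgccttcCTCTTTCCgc

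Transcripts of Rps27 and Rps27rt shared an unbroken stretch of 341 bases, which began at the first base of Rps27rt and at the fifth of Rps27. The core genes with and without the motif had close medians. In Cilk1-/- against wild type the medians were 0.11 for the 13 core genes with the motif and 0.10 for the 43 without, and in the compound mutant against wild type both were 0.02. A match is a property of the annotated start and was not measured in these libraries. The groups with and without the motif therefore need not differ in the tract of their mRNAs.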

How the data were processed

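RNA sequencing of 11 libraries was analysed from the deposited table, which holds per gene and library a log2(value + 1) made by the authors from a normalized value, probably FPKM. Per the submitters' processing notes, HISAT2 2.0.5, featureCounts 1.5.0-p3 and mm10 were used. The annotation, the treatment of reads that fit several genes and the depth are not given in the sources used here, and counts were not used. Groups were taken from the sample titles. All 16755 genes were fitted with limma 3.58.1 (R 4.3.3; trend and robust empirical Bayes) in one model of 3 genotypes, with the Benjamini-Hochberg adjustment over all genes, and a gene was called where the adjusted p was under 0.05 and the change 1.5-fold or more. Its recovery of 200 genes changed by known folds was checked by simulation. The simulated libraries varied independently, so the check does not cover the dependence between same-numbered wild-type and Cilk1-/- libraries. Copy groups were formed by symbol and summed on the linear scale. Sums weighted by exon length, the pair of Rps27 and Rps27rt alone, and pairs with listed copies sharing at least 40% of stretches were added after seeing the data. Shared stretches, reading frames and lengths came from GENCODE vM21 (GRCm38), which held 90 of the 91 rows, and start regions from RefSeq (GRCm38.p6). Reading frames were aligned with Biopython 1.88, and figures were drawn with Python 3.11.15 and matplotlib 3.10.9. Rows were named where called, where they had the 5 highest or lowest fold changes among rows whose libraries did not overlap, where they had a listed copy or a role in a fixed list (with exceptions not reported here), and where they were the 5 highest or lowest in wild type. Rps21, Rps29, Rpl7a and the pairs with Gm15772 and Gm12191 were chosen after their values were seen. The rows and gene lists (ribosomal proteins outside the symbol rule, elongation, ribosome biogenesis, mitochondrial ribosomal proteins, hosts of small nucleolar RNAs, p53 targets, integrated stress response and cell type markers) were chosen with earlier results of these data known. Lists were described by counts and medians, without a test. Alternatives changed the samples in the fit, a term for library set or replicate number, the empirical Bayes settings, the pseudocount, a filter on low values, the normalization, the libraries left out and the copy sums.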

Additional observations from a re-analysis of the deposited data

Results flagged for a closer look

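In groups of 4 libraries, 58 checks were made for a single library far from the other 3, and 3 libraries were found where the gap to the nearest library, divided by the range of the group, was above 0.829. Chance gives about 1 in 20 groups. Rps27 in wild-type library 2 was at 4.23, above 2.81 to 3.02 in the other wild-type libraries (gap over range 0.853). The Rpl30 pseudogene Gm12191 in Cilk1-/- library 3 was at 8.66, above 4.71 to 5.31 in the other Cilk1-/- libraries (0.848). Rpl39l in wild-type library 4 was at 0.0552, below 0.28 to 0.31 in the other wild-type libraries (0.854). The compound mutant, with 3 libraries, was not checked in this way.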

How the results depend on the processing

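The median fold change of the 91 rows in Cilk1-/- against wild type stayed above 0 when each library was left out in turn (0.06 to 0.13), and no row was called there. In the compound mutant against wild type this median ranged from −0.06 to 0.10, and against Cilk1-/- from −0.14 to 0.0070. Leaving out each library gave 1 to 2 rows called higher and 0 to 1 called lower in each of both comparisons of the compound mutant, and 0 to 1 copy groups called lower in each. Fitting only the genotypes compared gave 1 row called higher and 0 lower against wild type, and 0 higher, 0 lower and 0 copy groups against Cilk1-/-. The term for library set gave 0 in all of these counts. Weighted by length, 0 copy groups were called lower against Cilk1-/-, and the difference of the Rps27 group turned from −0.70 to 0.05. Rps27a against Cilk1-/- was also no longer called without trend and robust settings (adjusted p = 0.0549), with genes of a mean of at least 1 (0.0521) and with median centring (0.0508).

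The replicate numbers tied wild-type and Cilk1-/- libraries together, but with opposite deviations, whereas a block assumes that they deviate together. For numbers 1 to 4, the deviation of the wild-type library from its group mean correlated with that of the Cilk1-/- library at −0.741, −0.892, −0.848 and −0.792 over 16755 genes (−0.735, −0.763, −0.946 and −0.124 over the 76 core genes), and those of compound mutant libraries with the same numbers lay between −0.117 and 0.256. With the replicate number as a block, 0 rows were called higher and 0 lower in both comparisons of the compound mutant, and 0 copy groups, also when the compound mutant was placed with number 4 and when copy sums were weighted by length. The cause of the lost calls was not tested. Depth is unknown, so low rows such as Rpl39l cannot be given a counting error.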
